A study of Rattus norvegicus with 9 samples.

Results

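The genes described here carry the names of the tumor necrosis factor (TNF) superfamily of ligands and receptors, of their TRAF adaptors and RIP kinases, and of the caspase, gasdermin, inhibitor of apoptosis and BCL2 families. They were taken by symbol from 2 tables of cardiac RNA values, and 46 of the 5760 listed genes matched. The table called here the Cal and Model table held 37 of them among 4288 genes, the Cal and Con table held 29 among 2458, and 20 were in both. Genes with such names outside these lists, among them Bax and Ripk3, were not analysed here.

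Hearts of 9 Sprague Dawley rats were sequenced, 3 in each of 3 groups, and per the study's methods the rats were male; their age is not given in the sources used here. The Control group, written Con in the tables, had a sham operation, while in the Model and Cal groups the left anterior descending coronary artery was tied off to induce heart failure (HF). Rats of the Cal group were then given calycosin, an isoflavone of Astragalus, at 80 mg/kg per day for 28 days, and rats of the Control and Model groups were given distilled water. The tissue is labelled heart, and which part of the ligated heart was taken is not given in the sources used here. Myh6, the cardiac alpha-myosin heavy chain, stood at 275029 ± 33746 normalized counts in the Con libraries and at 335145 ± 1036 in the Cal-headed libraries (SD, n = 3 each).

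A normalized count is a gene's read count divided by the size factor of its library. Recovered reads on the listed genes ran from 2860826 to 3998471 per library for the genes listed with Model and from 3270460 to 4659882 for those listed with Con. The headings of the tables contradict each other. In the Cal and Model table the mean column headed Cal averaged the 3 sample columns headed Model in 4288 of 4288 genes, and the mean column headed Model was that of the sample columns headed Cal. The other table, which the authors named for Model against Con, has sample columns headed Cal and Con, and its mean column headed Model was the mean of the columns headed Cal in 2458 of 2458 genes. Libraries are therefore named by their sample headings throughout. By the mean columns every Cal-headed library belongs to the model group and every Model-headed library to the Cal group. Each direction below between the Cal-headed and Model-headed libraries then exchanges its 2 names. The mean column headed Con was that of the Con sample columns in 2458 of 2458 genes. Directions against Con therefore stay as given, with only the Cal-headed group renamed model. The Cal-headed libraries are the same 3 in both tables, with identical reads in all 986 shared genes, so the 2 comparisons share them and are not independent.

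TNF superfamily ligands bind trimeric receptors on the cell surface, and the receptors recruit TRAF adaptors, RIP kinases and inhibitor of apoptosis proteins. From there the signal runs either to NF-kB and the expression of inflammatory and survival genes, or through caspase-8 to apoptosis and, where caspase-8 is blocked, through RIP kinases and MLKL to necroptosis. Mitochondrial apoptosis is set by the balance of BCL2 family members, and inflammatory caspases cleave gasdermin D to open pores in the membrane. In the infarcted heart these pathways are known both for the loss of cardiomyocytes and for the inflammatory response to it.

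Upstream sequences of 30 of the 46 genes were in the RefSeq table of rat promoters (assembly GRCr8), and 5 are printed because results below turn on these genes. Tnf gives the superfamily its name, and Mlkl had the largest log2 fold change against Model after the low Tnfrsf9. Casp1 and Casp12 lie in 1 cluster, with Casp4 between them in the mouse coordinates, and Fas is the prototype death receptor. The 250 bases before each gene's start are given 5′ to 3′ on the gene's strand, and capitals mark a match to the NF-kB consensus, to TTCNNNGAA or to GAAANNGAA on either strand.

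Tnf (chr20:3626435-3626684, + strand): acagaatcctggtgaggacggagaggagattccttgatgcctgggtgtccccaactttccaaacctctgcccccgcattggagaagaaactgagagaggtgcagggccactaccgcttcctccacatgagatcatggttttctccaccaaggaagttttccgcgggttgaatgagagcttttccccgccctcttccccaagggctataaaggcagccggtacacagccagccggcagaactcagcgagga
Mlkl (chr19:56213859-56214108, - strand): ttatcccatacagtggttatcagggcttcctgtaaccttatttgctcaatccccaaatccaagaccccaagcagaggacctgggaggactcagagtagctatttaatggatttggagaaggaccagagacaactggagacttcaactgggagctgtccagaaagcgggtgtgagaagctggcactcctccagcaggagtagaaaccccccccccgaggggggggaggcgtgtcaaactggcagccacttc
Casp1 (chr8:10872580-10872829, + strand): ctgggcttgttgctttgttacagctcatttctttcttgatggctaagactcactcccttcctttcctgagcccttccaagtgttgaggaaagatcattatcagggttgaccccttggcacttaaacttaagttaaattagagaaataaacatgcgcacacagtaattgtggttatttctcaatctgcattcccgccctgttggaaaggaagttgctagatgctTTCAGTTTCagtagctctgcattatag
Casp12 (chr8:10926938-10927187, + strand): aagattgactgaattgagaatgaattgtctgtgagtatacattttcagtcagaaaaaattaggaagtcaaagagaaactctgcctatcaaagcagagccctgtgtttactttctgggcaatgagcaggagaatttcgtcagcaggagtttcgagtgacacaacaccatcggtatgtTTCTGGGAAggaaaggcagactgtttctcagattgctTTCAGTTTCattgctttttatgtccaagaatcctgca
Fas (chr1:241211905-241212154, + strand): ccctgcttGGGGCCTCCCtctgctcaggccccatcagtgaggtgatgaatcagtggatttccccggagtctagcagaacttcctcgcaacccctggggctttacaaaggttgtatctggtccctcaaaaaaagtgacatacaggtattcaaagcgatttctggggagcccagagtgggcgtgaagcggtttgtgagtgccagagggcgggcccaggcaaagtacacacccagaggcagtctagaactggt

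Casp1 held GAAANNGAA on the opposite strand from -27 to -19 relative to the start, and Casp12 held it there from -37 to -29, with TTCNNNGAA from -74 to -66. In these letters the Tnf and Mlkl windows held none of the 3 motifs, and in the Fas window the NF-kB consensus lay from -242 to -233. Over the 30 genes, the NF-kB consensus was in 5 (Fas, Mcl1, Pmaip1, Tnfrsf8 and Traf3ip2), against 6.92% of 27457 genes with a promoter entry. TTCNNNGAA was in 3 of them (Bcl2l1, Casp12 and Tnfrsf12a), against 8.19%, and GAAANNGAA was in 6 (Casp1, Casp12, Ripk1, Tnfrsf1b, Tnfsf10 and Traf4), against 8.66%. No overlap between the motifs was found in the printed windows, and a match is a run of letters only.

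Between the Cal-headed and the Model-headed libraries, most of these genes were lower in the Cal-headed libraries, among them the necroptosis effector Mlkl, the caspase genes Casp1, Casp4, Casp8 and Casp12, Gsdmd and the receptors Fas and Tnfrsf1a, while Tnf, Tnfsf9 and Tnfrsf19 were higher there. Of 37 genes, 31 passed the test, 24 lower and 7 higher in the Cal-headed libraries, where passing means a limma adjusted p under 0.05 with a log2 fold change beyond 1. Of all listed genes 60.1% passed, 31.6% lower and 28.4% higher in the Cal-headed libraries. With edgeR on the recovered reads the number was again 31, against 60.5% of the listed genes. The median log2 fold change was -1.33 over the 37 genes and -0.52 over all 4288. All 37 had groups that did not overlap and an adjusted p under 0.05 without the fold limit, as did 98.2% and 99.6% of the table respectively, which lists only genes that the authors' own test on these libraries had selected. The library Model 2 was the highest of its group in 23 of the 37 genes and in 40.5% of all listed genes, and without it 29 passed, 22 lower and 7 higher. Neutrophil markers were lower in the same libraries, at a summed level of 82.1 to 249 in the Cal-headed against 999.7 to 1083 in the Model-headed libraries. Summed macrophage or monocyte markers (8304 to 9346 against 2913 to 4642) and endothelial markers (12966 to 15655 against 5865 to 7696) were higher there. Other cell types are given below, and the part of any cell type in these differences was not tested. In bulk tissue, fewer cells of a type and less RNA per cell cannot be told apart.

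Between the Cal-headed and the Con libraries, the genes that passed were all higher in the Cal-headed libraries, led by Tnf, Tnfsf9 and the Bcl2a1 genes and followed by Casp4, Ripk2 and Birc3. Of 29 genes, 14 passed, against 29.0% of the table, 18.0% of it higher and 10.9% lower. With edgeR on the recovered reads the same number passed, against 29.1% of the table. Of the 14, 3 carry Bcl2a1 symbols, near-identical mouse copies that may not be separate rat genes. The median log2 fold change was 0.96 over the 29 genes and 0.37 over all 2458, and all 29 had groups that did not overlap and an adjusted p under 0.05, as did 97.4% and 99.8% of the table. None passed as lower in limma, edgeR or DESeq2, although 5 were below 0 at an adjusted and an unadjusted p under 0.05 without the fold limit (Bcl2, Casp2, Casp12, Tnfrsf21 and Traf5). Rescaling on the listed genes moved this split from 14 higher and 0 lower to 14 and 3 with TMM scaling and to 12 and 3 with median ratios.

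**Figure D1:**
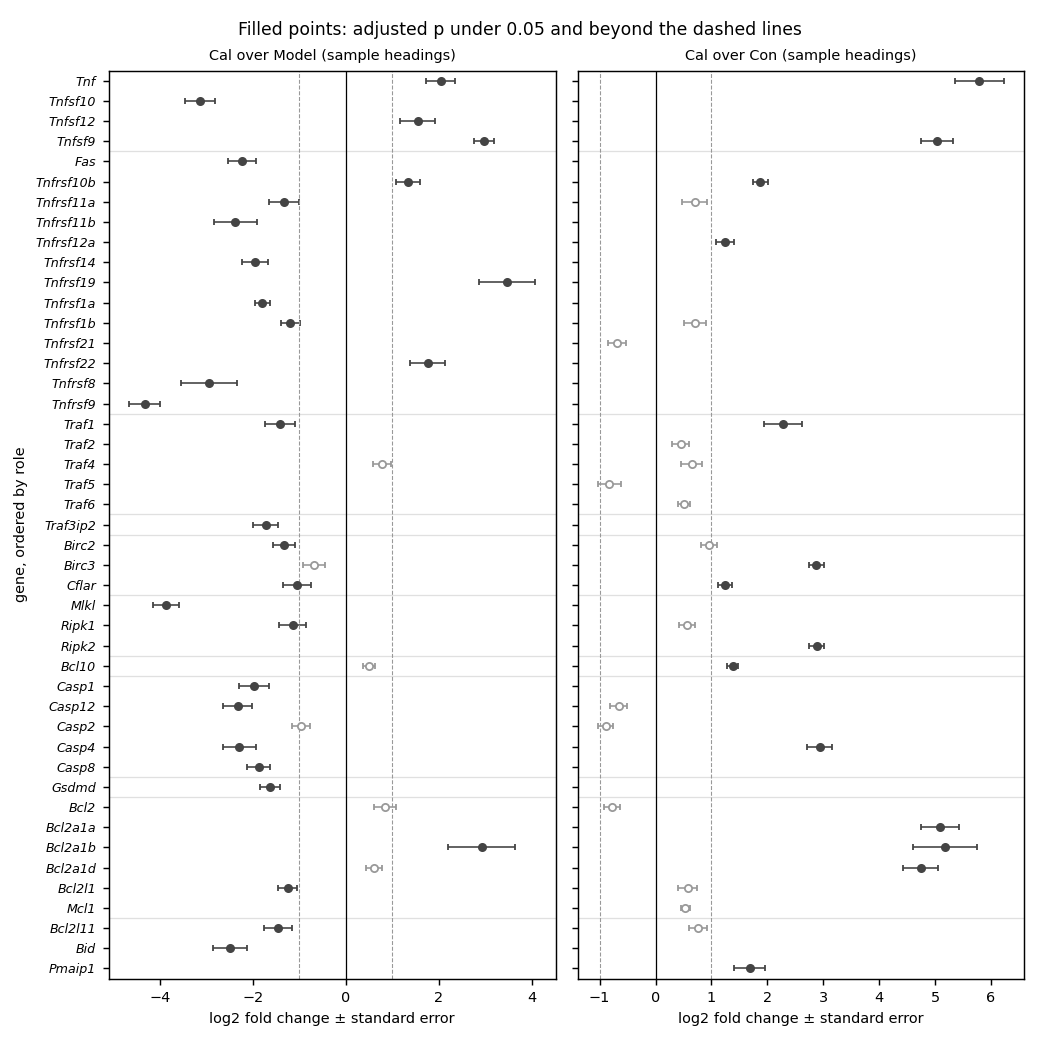
Log2 fold change (x axes) of each reported gene (y axis, ordered by role) between the Cal-headed and Model-headed libraries on the left and between the Cal-headed and Con libraries on the right, with bars of 1 standard error from limma and n = 3 per group. Filled points passed the test and dashed lines mark a log2 fold change of 1 in either direction; most filled points lie below 0 on the left and all 14 lie above 0 on the right, and the mean columns give the group headed Cal the name model.

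Among the ligands, Tnf and Tnfsf9 were higher in the Cal-headed libraries than in the Model-headed and the Con libraries, while Tnfsf10, listed with Model only, was lower in the Cal-headed than in the Model-headed libraries. Tnf (ENSMUSG00000024401, chromosome 17, 35199381 to 35202007 in the mouse coordinates of the tables), the founding cytokine of the family, had 163, 132 and 87.2 normalized counts in the Model-headed libraries 1 to 3 and 757, 416 and 424 in the Cal-headed libraries 1 to 3. The library Cal 1 stood above the other 2 of its group, and the log2 fold change of 2.04 ± 0.31 (standard error) was no lower than 1.76 when any 1 library was left out. In the Con libraries Tnf was at 14.9, 12.8 and 4.05, against 847, 466 and 472 in the Cal-headed libraries on the scale of that table. Tnfsf9, the ligand of the costimulatory receptor 4-1BB, had 40.0, 39.0 and 42.2 in the Model-headed libraries against 352, 249.7 and 385 in the Cal-headed libraries, a log2 fold change of 2.97 ± 0.22 (limma adjusted p = 1.33e-04). The 3 Model-headed libraries were nearly level, and each Cal-headed library lay several times above them. Con libraries held 7.45, 14.7 and 9.11 for Tnfsf9 and the Cal-headed libraries held 394, 279.9 and 429, a log2 fold change of 5.04 ± 0.28. Tnfsf12, known as TWEAK and the ligand of the receptor Tnfrsf12a, had 33.5, 13.4 and 24.0 in the Model-headed libraries against 84.9, 51.6 and 67.5 in the Cal-headed libraries, a log2 fold change of 1.55 ± 0.38. Tnfsf12 overlaps a neighbouring superfamily gene, and the sources used here do not say how reads in the overlap were assigned.

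Tnfsf10 went the other way. Tnfsf10 (ENSMUSG00000039304, chromosome 3, 27317028 to 27342427), the death ligand TRAIL, had 4653, 5766 and 2939 in the Model-headed libraries against 397, 405 and 733 in the Cal-headed libraries. It was 8.71 times higher in the mean of the Model-headed libraries, a log2 fold change of -3.13 ± 0.32 (limma adjusted p = 2.89e-04), and even the lowest of them was above the highest Cal-headed library. Thus 3 of the 4 listed ligands passed as higher in the Cal-headed libraries and 1 as lower. Of all genes listed with Model, 28.4% passed as higher and 31.6% as lower, and with Con 18.0% and 10.9%. Each count by role below stands beside these shares.

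**Figure D2:**
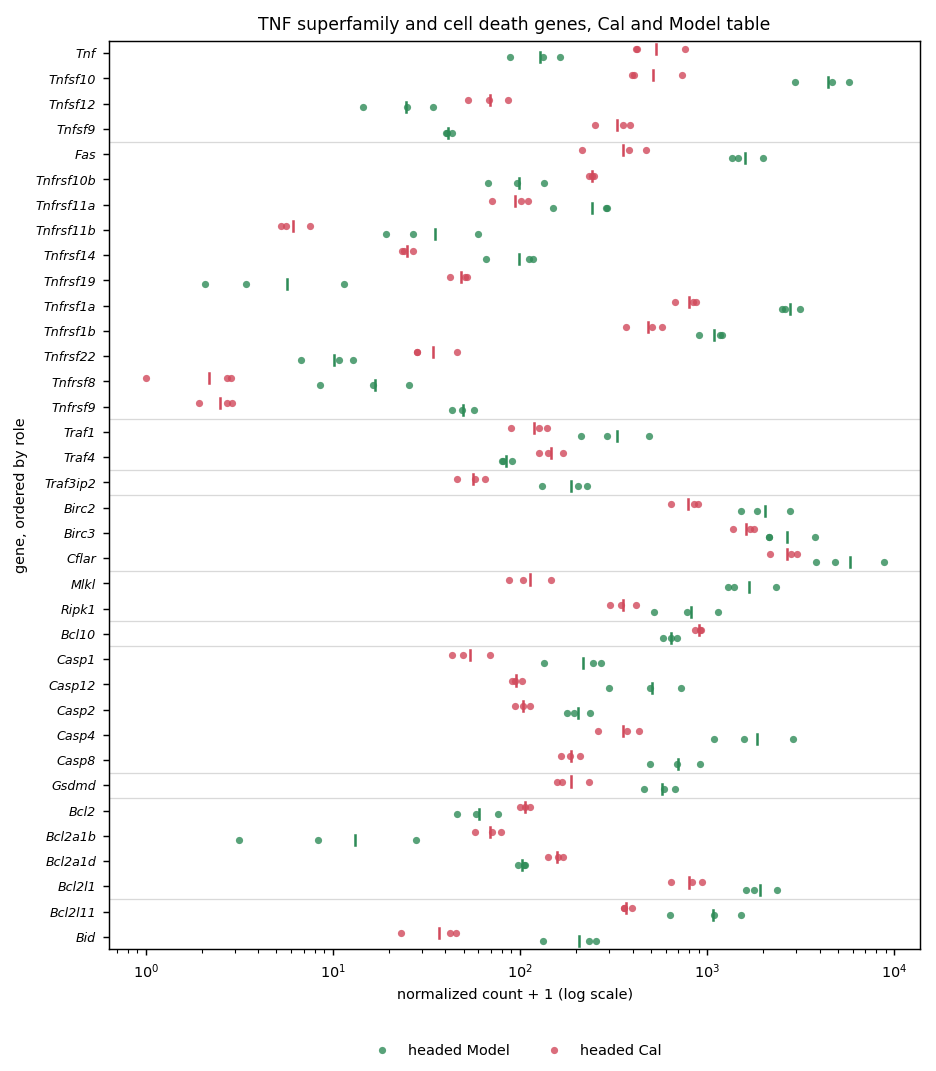
Normalized count plus 1 on a log x axis for the reported genes of the Cal and Model table (y axis, ordered by role), with 1 point per library and a short bar at the group mean (n = 3). No gene's groups overlap; Mlkl lies between 1286 and 2327 in the Model-headed libraries and between 86.4 and 146 in the Cal-headed libraries, which the mean columns call model.

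Of 11 listed receptors, 8 passed as lower in the Cal-headed libraries and 3 as higher, against 31.6% and 28.4% of the table. Fas (ENSMUSG00000024778, chromosome 19, 34290659 to 34327770), the prototype death receptor, had 1460.0, 1983 and 1358 in the Model-headed libraries against 214, 470.2 and 380.0 in the Cal-headed libraries, a log2 fold change of -2.22 ± 0.30. Tnfrsf1a, the main TNF receptor on most cells, had 2618, 2501 and 3151 in the Model-headed libraries against 674, 844 and 869 in the Cal-headed ones, a log2 fold change of -1.79 ± 0.16 (limma adjusted p = 2.10e-04). In both genes each Model-headed library was above every Cal-headed library, and among the Cal-headed libraries the first was the lowest. Tnfrsf1b, the second TNF receptor, had 907, 1171 and 1193 in the Model-headed libraries against 367, 507 and 572 in the Cal-headed libraries. Its log2 fold change was -1.19 ± 0.20 and fell short of the fold limit after quantile normalization, at -0.83. Con libraries held 262, 380.1 and 339 for Tnfrsf1b, below the 411, 568 and 638 of the Cal-headed libraries, and the log2 fold change of 0.71 ± 0.20 did not reach the limit.

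Tnfrsf11a, the receptor RANK, had 149, 288 and 292 in the Model-headed libraries against 70.1, 109.8 and 101 in the Cal-headed libraries. In the table with Con it had 54.0, 71.7 and 63.8 in the Con libraries against 78.4, 123 and 112 in the Cal-headed ones. The libraries Model 2 and 3 were nearly equal and the first lay nearer to the Cal-headed libraries than to them. Tnfrsf11b, the soluble decoy osteoprotegerin, had 18.4, 58.5 and 25.9 in the Model-headed libraries against 4.61, 6.57 and 4.27 in the Cal-headed libraries. Tnfrsf14, a receptor also known as HVEM, had 117, 111 and 65.2 in the Model-headed libraries against 25.8, 22.5 and 23.1 in the Cal-headed ones. Log2 fold changes of these 3 receptors were -1.33 ± 0.32, -2.37 ± 0.47 and -1.95 ± 0.29 in that order. The receptor pair of lymphocyte activation, Tnfrsf8 (CD30) and Tnfrsf9 (4-1BB), was nearly silent in the Cal-headed libraries. Tnfrsf9 had 42.1, 56.1 and 47.9 normalized counts in the Model-headed libraries and 0.922, 1.88 and 1.71 in the Cal-headed libraries, the latter from 1, 2 and 2 reads. Its ratio, Model to Cal, with a 95% exact interval for counting error only, was 32.1, 13.4 to 101. Tnfrsf8 had 7.56, 24.4 and 15.3 in the Model-headed libraries against 1.84, 0 and 1.71 in the Cal-headed ones, the latter from 2, 0 and 2 reads, and the ratio was 12.8, 4.65 to 49.1. Tnfsf9, the ligand of Tnfrsf9, was higher in the Cal-headed libraries (above), so ligand and receptor differed in opposite directions in the same libraries.

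Tnfrsf19, Tnfrsf22 and Tnfrsf10b were the 3 receptors that passed as higher in the Cal-headed libraries. Tnfrsf19, known as TROY, had 1.08, 2.44 and 10.5 in the Model-headed libraries against 41.5, 49.7 and 51.2 in the Cal-headed libraries, a log2 fold change of 3.47 ± 0.61 that was 4.18 without the library Model 3. Tnfrsf22, a decoy receptor for TRAIL in the mouse, had 11.9, 9.76 and 5.75 in the Model-headed libraries against 45.2, 27.2 and 27.3 in the Cal-headed ones, a log2 fold change of 1.77 ± 0.37, and it has close paralogs, so its reads are uncertain. Tnfrsf10b, the death receptor for TRAIL, had 134, 95.1 and 66.1 in the Model-headed libraries against 241, 234 and 247 in the Cal-headed libraries, a log2 fold change of 1.34 ± 0.26. In Tnfrsf10b the Cal-headed libraries lay within a narrow band while Model-headed libraries were spread, and its ligand Tnfsf10 differed in the opposite direction. Con libraries held 73.6, 66.8 and 77.9 for Tnfrsf10b and the Cal-headed libraries 269, 262 and 275, a log2 fold change of 1.87 ± 0.14 (limma adjusted p = 1.64e-05). Tnfrsf12a, the TWEAK receptor Fn14, was listed with Con only and had 452, 435 and 395 in the Con libraries against 863, 1324 and 904 in the Cal-headed libraries, where the second library was the highest. Its log2 fold change of 1.24 ± 0.17 fell below the limit after quantile normalization, at 0.91. Tnfrsf21, death receptor 6, had 469 ± 24.6 in the Con libraries and 294 ± 64.3 in the Cal-headed libraries (SD, n = 3 each) and did not reach the limit.

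Among the adaptors, Traf1 was highest in the Model-headed libraries and lowest in Con. Traf1, a TRAF that binds other TRAFs and inhibitor of apoptosis proteins, had 293, 487 and 209.9 in the Model-headed libraries against 88.6, 126 and 139 in the Cal-headed libraries, a log2 fold change of -1.42 ± 0.33. In the Con libraries it was at 33.5, 33.4 and 15.2, against 99.0, 141 and 155 in the Cal-headed libraries, a log2 fold change of 2.28 ± 0.34 (limma adjusted p = 7.33e-04). The library Model 2 was again the highest of the 6 in Traf1, and the groups did not overlap in either table. Traf4, an adaptor with roles in development, had 79.9, 90.2 and 79.6 in the Model-headed libraries against 169.7, 126 and 141 in the Cal-headed libraries, and 125, 97.2 and 89.1 in Con against 189.8, 141 and 157 in the Cal-headed libraries. Neither Traf4 difference reached the fold limit (0.79 ± 0.20 and 0.65 ± 0.19), although the one against Model did with TMM (1.01) or median-ratio scaling (1.09). Traf2, Traf5 and Traf6, listed with Con only, had log2 fold changes of 0.45 ± 0.14, -0.82 ± 0.21 and 0.51 ± 0.10, and none of the 3 reached the limit. Traf3ip2, the IL-17 receptor adaptor Act1 and a TRAF by name only, had 129.6, 204 and 227 in the Model-headed libraries against 45.2, 63.8 and 56.4 in the Cal-headed libraries, a log2 fold change of -1.72 ± 0.27.

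Of the inhibitors of apoptosis Birc2 and Birc3 and the caspase-8 regulator Cflar, all 3 listed in both tables, 2 passed as lower than in the Model-headed libraries and 2 as higher than in Con. Birc3 (ENSMUSG00000032000, chromosome 9, 7848699 to 7873186), the ubiquitin ligase cIAP2, had 2129.6, 3768 and 2139 in the Model-headed libraries against 1378, 1688 and 1790.0 in the Cal-headed libraries. Libraries Model 1 and 3 were level and Model 2 stood far above them, and the log2 fold change of -0.68 ± 0.24 did not reach the limit and moved to -0.12 (limma adjusted p = 0.532) after quantile normalization. With Con the difference was wide: 226, 278 and 232 in the Con libraries against 1541, 1892 and 1996 in the Cal-headed libraries, a log2 fold change of 2.88 ± 0.13 (limma adjusted p = 1.37e-06). Birc2, the sister ligase cIAP1 and the next gene on the chromosome, had 1847, 2762 and 1511 in the Model-headed libraries against 642, 888 and 849 in the Cal-headed libraries, a log2 fold change of -1.33 ± 0.24 that was -0.87 after quantile normalization. Con libraries held 407, 476 and 474 for Birc2 against 718, 996 and 946, and the log2 fold change of 0.96 ± 0.14 passed the limit only when the library Cal 1 was left out (1.10). Cflar, or c-FLIP, which blocks caspase-8 at death receptors, had 4813, 8765 and 3824 in the Model-headed libraries against 2176, 2796 and 3019.8 in the Cal-headed libraries. Its log2 fold change of -1.04 ± 0.31 rested on the library Model 2, without which it was -0.70, and it was -0.91 without the library Cal 1 and -0.45 (limma adjusted p = 0.0877) after quantile normalization. Con libraries held 1236, 1298 and 1194 for Cflar and Cal-headed libraries 2434, 3135 and 3367, a log2 fold change of 1.25 ± 0.12 that quantile normalization moved to 0.78.

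Both listed genes of RIP kinase signalling and necroptosis passed as lower than in the Model-headed libraries, and of the 37 log2 fold changes only that of Tnfrsf9, with few reads, was larger in size than that of Mlkl. Mlkl (ENSMUSG00000012519, chromosome 8, 111311797 to 111338177), the pseudokinase that permeabilises the membrane in necroptosis, had 1286, 2327 and 1389.8 in the Model-headed libraries against 103, 86.4 and 146 in the Cal-headed libraries. The mean of the Model-headed libraries was 14.9 times that of the Cal-headed libraries, a log2 fold change of -3.87 ± 0.28 (limma adjusted p = 1.33e-04), and it lay between -4.08 and -3.60 when any 1 library was left out. Ripk1, the kinase at the branch between NF-kB signalling and death, had 781, 1143 and 521 in the Model-headed libraries against 301, 345 and 418 in the Cal-headed libraries. Every Model-headed library was above the Cal-headed libraries, but the log2 fold change of -1.14 ± 0.29 was -0.86 without the library Model 2 and was -0.87 after quantile normalization. Con libraries held 267, 291 and 243 for Ripk1, against 336, 387 and 466, and the log2 fold change of 0.56 ± 0.15 did not reach the limit. Ripk2, the kinase downstream of the NOD receptors, was listed with Con only, at 117, 124 and 118 in the Con libraries against 771, 892 and 1022 in the Cal-headed libraries. Con libraries were almost equal in Ripk2 and each Cal-headed library was several times higher, a log2 fold change of 2.88 ± 0.13 (limma adjusted p = 1.33e-06). Bcl10, a CARD adaptor of NF-kB signalling that is no BCL2 family member, had 643, 691 and 584 in the Model-headed libraries against 931, 864 and 916 in the Cal-headed libraries, a log2 fold change of 0.50 ± 0.13 that did not reach the limit. In Con it was at 373, 419 and 371 against 1041, 969 and 1021 in the Cal-headed libraries, and the log2 fold change of 1.38 ± 0.10 passed.

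The caspase genes Casp4, Casp1, Casp12 and Casp8 passed as lower in the Cal-headed than in the Model-headed libraries, and Casp2 did not reach the limit. Casp4, the mouse caspase-11 that senses bacterial lipopolysaccharide, had 1573, 2871 and 1085 in the Model-headed libraries against 259, 432 and 373 in the Cal-headed libraries. Casp1, the inflammasome caspase that matures interleukin-1 beta, had 245, 269.5 and 133 in the Model-headed libraries against 48.9, 42.2 and 68.3 in the Cal-headed ones. Casp12, a caspase linked to the endoplasmic reticulum, had 497, 727 and 299 in the Model-headed libraries against 93.2, 89.2 and 102 in the Cal-headed ones. In all 3 the library Model 2 was the highest and Model 3 the lowest of their group, and the latter still lay above every Cal-headed library. These 3 genes lie side by side within 74.5 kb of mouse chromosome 9 (5298517 to 5373032), and their log2 fold changes were -2.29 ± 0.36, -1.97 ± 0.32 and -2.32 ± 0.31 in the order given. Casp8, the initiator caspase of death receptors, had 690.1, 916 and 496 in the Model-headed libraries against 164, 183 and 209 in the Cal-headed libraries, a log2 fold change of -1.88 ± 0.24 (limma adjusted p = 5.99e-04). Casp2, an initiator caspase, had 193, 237 and 177 in the Model-headed libraries against 103, 92.9 and 112 in the Cal-headed ones, and its log2 fold change of -0.97 ± 0.19 passed the limit only without the library Model 3 (-1.06) or the library Cal 3 (-1.03). Gsdmd, the pore-forming substrate of the inflammatory caspases and the only listed gasdermin, had 461, 669.5 and 586 in the Model-headed libraries against 158, 166 and 232 in the Cal-headed libraries, a log2 fold change of -1.63 ± 0.22 (limma adjusted p = 6.88e-04).

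Against Con, the 3 listed caspases parted. Casp4 had 50.3, 41.3 and 59.7 in the Con libraries against 289.9, 484 and 416 in the Cal-headed libraries, a log2 fold change of 2.94 ± 0.23 (limma adjusted p = 2.07e-05). Its neighbour Casp12 had 156, 189 and 159 in Con and 104, 100 and 113 in the Cal-headed libraries, a log2 fold change of -0.66 ± 0.15. Casp2 had 204, 215 and 222 in Con against 116, 104 and 125 in the Cal-headed libraries, a log2 fold change of -0.89 ± 0.14. Casp4 was thus higher in the Cal-headed libraries, and Casp12 and Casp2 had values below Con without reaching the limit. With TMM or median-ratio scaling on the listed genes, Casp2, Bcl2 and Traf5 passed as lower, and with quantile normalization Casp2 did.

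**Figure D3:**
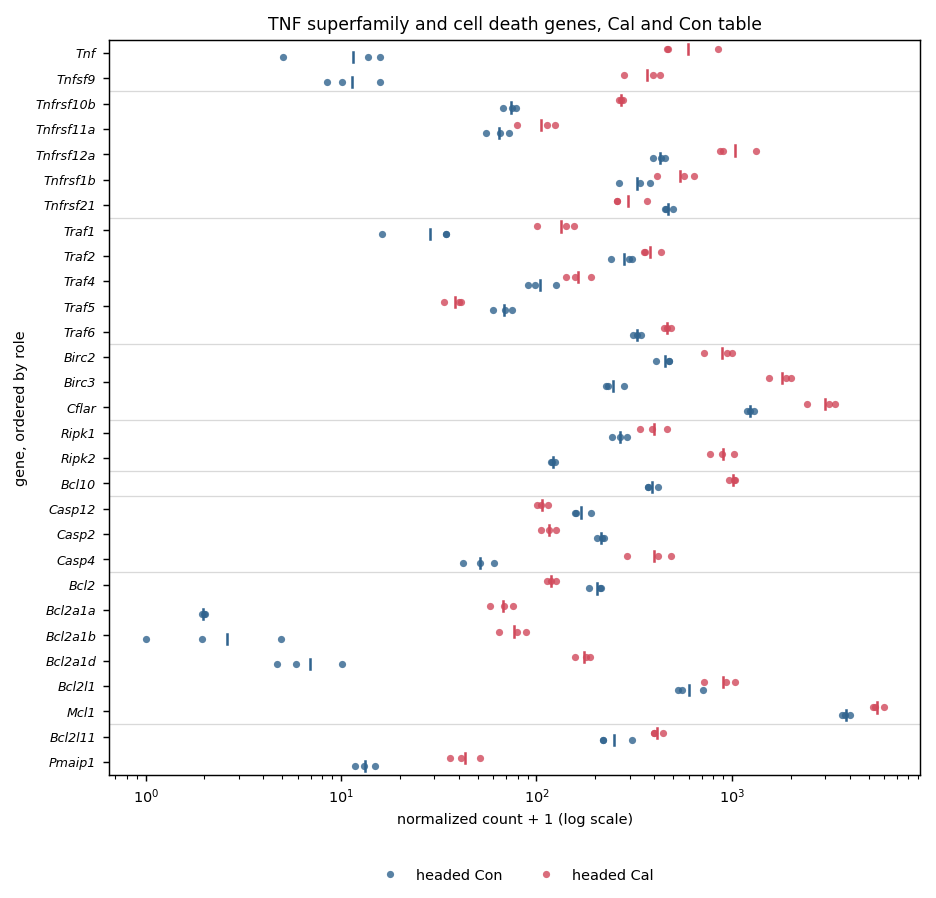
Normalized count plus 1 on a log x axis for the 29 genes of the Cal and Con table (y axis, ordered by role), with 1 point per library and a short bar at the group mean (n = 3). Tnf lies between 4.05 and 14.9 in the Con libraries and between 466 and 847 in the Cal-headed libraries, which the mean columns call model, and no gene's groups overlap.

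Of the 4 anti-apoptotic BCL2 genes listed with Model, 1 passed as higher and 1 as lower in the Cal-headed libraries, and of the 6 listed with Con 3 passed as higher. The latter 3 are the Bcl2a1 genes (below), mouse symbols of near-identical copies, and may not stand for 3 separate rat genes. Bcl2l1 (ENSMUSG00000007659, chromosome 2, 152780668 to 152831728), encoding BCL-XL, had 1772, 1607 and 2349 in the Model-headed libraries against 644, 829 and 933 in the Cal-headed libraries, a log2 fold change of -1.25 ± 0.20 that quantile normalization moved to -0.80. Con libraries held 530.2, 714 and 556 for Bcl2l1 against 720.1, 929 and 1041, a log2 fold change of 0.58 ± 0.17 that did not reach the limit. Bcl2 itself had 75.6, 57.3 and 45.0 in the Model-headed libraries against 112, 99.5 and 105 in the Cal-headed libraries, and 212, 213 and 185 in Con against 125, 112 and 117. It was lowest in the Model-headed libraries and highest in Con, but its log2 fold changes of 0.85 ± 0.24 and -0.78 ± 0.14 did not reach the limit. Against Model it passed without the library Model 1 (1.04), with TMM scaling (1.03) and with median-ratio scaling (1.14), and against Con with the same scalings (-1.02 and -1.06). Mcl1, a short-lived guard of mitochondria, was listed with Con only and had 3834 ± 196 in Con and 5550.3 ± 365 in the Cal-headed libraries (SD, n = 3 each), and its log2 fold change was 0.53 ± 0.08.

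The Bcl2a1 genes, anti-apoptotic NF-kB targets of blood cells, were near 0 in Con. Bcl2a1d had 3.73, 4.91 and 9.11 in the Con libraries against 188, 179 and 157 in the Cal-headed libraries, a log2 fold change of 4.74 ± 0.32. Bcl2a1a had 1 read in each Con library and 56.7, 67.4 and 75.2 normalized counts in the Cal-headed libraries, and the ratio, Cal to Con, with its counting interval was 68.4, 23.1 to 335. Bcl2a1b had 1, 4 and 0 reads in the Con libraries and 62.9, 87.4 and 78.1 normalized counts in the Cal-headed libraries, with a ratio of 46.9, 19.8 to 146. The Cal-headed libraries were close to each other in all 3 genes. Against the Model-headed libraries, Bcl2a1b had 2.16, 7.32 and 26.8 there and 56.3, 77.9 and 70.0 in the Cal-headed libraries, a log2 fold change of 2.93 ± 0.72 that was 2.17 without the library Model 1 and 3.74 without Model 3. Bcl2a1d had 97.2, 105 and 104 in the Model-headed libraries against 168, 159.6 and 141 in the Cal-headed ones, 0.60 ± 0.17, which did not reach the limit. These genes are near-identical copies on mouse chromosome 9, so how reads were split among them is uncertain. None of the 3 symbols had a rat promoter entry, and their 3 results are not independent.

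Both pro-apoptotic genes listed with Model, Bid and Bcl2l11, passed as lower in the Cal-headed libraries. Bid, which caspase-8 cleaves to reach the mitochondria, had 232, 252 and 132 in the Model-headed libraries against 22.1, 41.3 and 44.4 in the Cal-headed libraries, 5.72 times higher in the former (log2 fold change -2.49 ± 0.36, limma adjusted p = 9.26e-04). Bcl2l11, encoding BIM, had 631, 1519.5 and 1089 in the Model-headed libraries against 358, 357 and 395 in the Cal-headed ones, a log2 fold change of -1.45 ± 0.30, with the Model-headed libraries spread widely and Cal-headed libraries nearly level. Con libraries held 308, 217 and 219 for Bcl2l11 and Cal-headed libraries 400.3, 399.9 and 441, 0.75 ± 0.16, which did not reach the limit. Pmaip1, encoding NOXA and listed with Con only, had 14.0, 10.8 and 12.1 in Con and 50.6, 40.0 and 35.2 in the Cal-headed libraries, a log2 fold change of 1.68 ± 0.28.

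Over the 29 genes of the Con table the limma adjusted p ran from 1.33e-06 for Ripk2 to 0.0154 for Traf2, and over the 37 of the other from 1.33e-04 for Mlkl to 0.0260 for Birc3. With 3 libraries a group, the exact two-sided permutation test of a single gene cannot go below 0.1.

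To set the 3 groups beside each other, Con values of the 20 shared genes were multiplied by 0.894, the ratio of the shared Cal-headed libraries between the tables, which ran from 0.892 to 0.897 per library. The tables were normalized separately, so these levels are a description without a test between Con and Model. Casp4 stood at 45.1 ± 8.26 in Con, 355 ± 87.8 in the Cal-headed libraries and 1843 ± 923 in the Model-headed libraries (SD, n = 3 each), and the 3 groups did not overlap. Birc2, Birc3, Cflar, Ripk1, Traf1, Bcl2l1, Bcl2l11, Tnfrsf1b and Tnfrsf11a had the same order, with Con lowest and the Model-headed libraries highest, and no neighbouring groups overlapped in any of them. Birc2, for one, was at 405 ± 35.0 in Con, 793 ± 132 in the Cal-headed libraries and 2040.1 ± 647 in the Model-headed libraries. In this order, Casp4 included, the neighbouring pairs are the comparisons within the 2 tables. Groups did not overlap there in 97.4% of all genes listed with Con and 98.2% of those listed with Model. In Tnf, Tnfsf9, Bcl10, Bcl2a1d, Bcl2a1b and Tnfrsf10b, Con was again lowest but the Cal-headed libraries were highest, and in the last 2 of these the Con and Model libraries overlapped. Tnfsf9 was at 9.33 ± 3.41 in Con and 40.4 ± 1.62 in the Model-headed libraries, both far below 329 ± 70.7 in the Cal-headed libraries. Casp12 was lowest in the Cal-headed libraries, at 94.7, and its Con level of 150.0 lay below the 508 of the Model-headed libraries. Casp2 was also lowest in the Cal-headed libraries, with Con and Model overlapping, Traf4 was highest there with Con and Model overlapping, and Bcl2 was highest in Con.

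**Figure D4:**
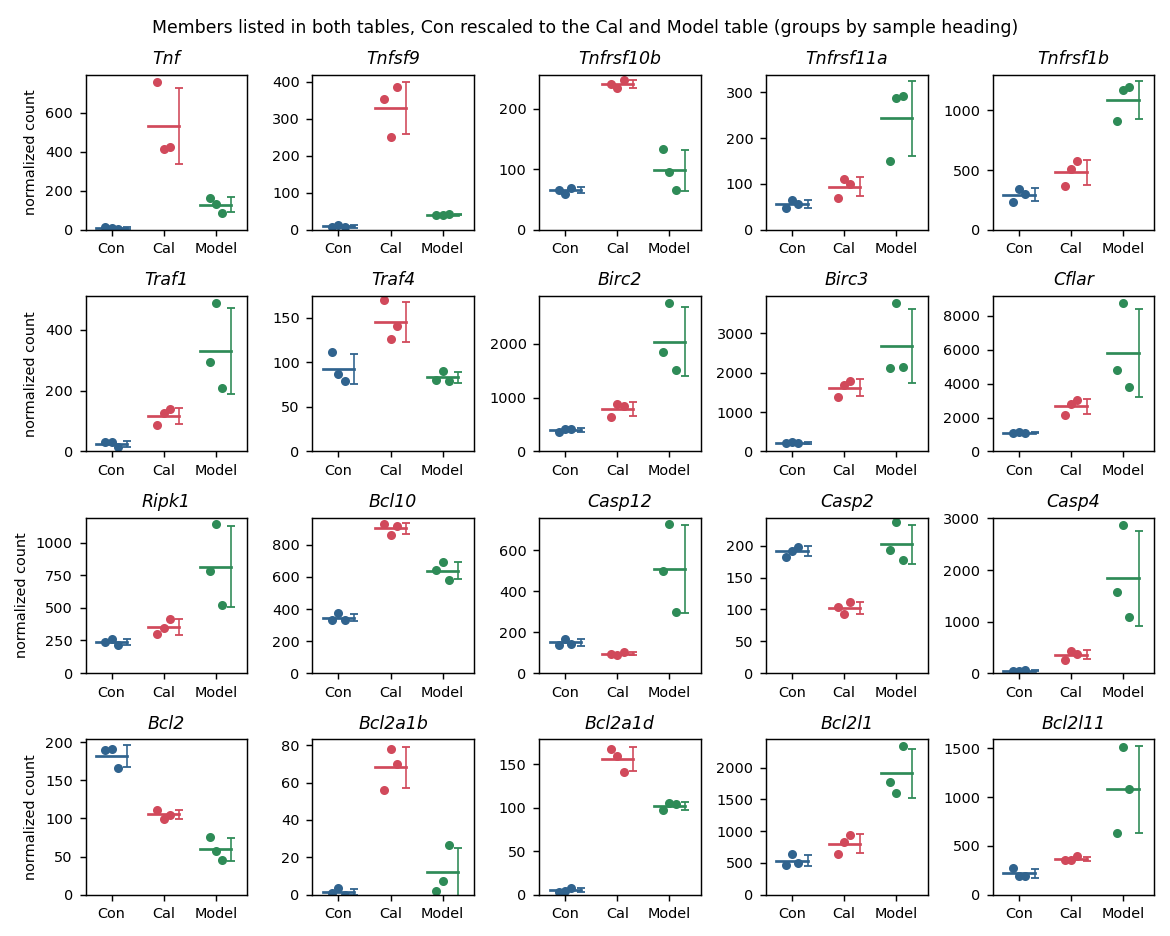
Normalized count on linear y axes from 0 for the 20 genes in both tables, with 1 point per library, a line at the group mean and a bar of 1 SD (n = 3), and the Con values multiplied by 0.894. Groups follow the sample headings, and the mean columns name Cal as model and Model as Cal; Casp4 climbs from 45.1 in Con to 355 and 1843, while Tnf is highest in the Cal-headed libraries.

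Levels were compared between genes only per kilobase of the deposited gene length, as normalized counts per kb. These lengths come with mouse identifiers while the samples are rat, so the order of genes is uncertain. In the Model-headed libraries, Tnfrsf1a was the highest of the 37 genes at 1064, before Fas at 889, Tnfsf10 at 846 and Mlkl at 724. In the Cal-headed libraries of the same table, and thus without genes listed with Con only, Tnf was at 325, Birc3 at 323 and Tnfrsf1a at 307. In Con, Mcl1 led the 29 genes at 1122, before Tnfrsf12a at 221, and Tnf stood at 6.45.

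Positions of the 46 genes in the mouse coordinates of the tables, whose build is not named there, placed 12 of them in 5 clusters within 500 kb. Beside the 3 caspases and the Bcl2a1 genes on chromosome 9, these were Birc2 with Birc3 on chromosome 9, Cflar with Casp8 on chromosome 1, and Tnfrsf1b with Tnfrsf8 on chromosome 4. Neighbours did not always match: in the Con table Birc3 passed and Birc2 did not, and Casp4 and Casp12 lay on opposite sides of 0.

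Genes of the same pathways with other names were counted from lists set by symbol. Beside each count stand the shares of all listed genes. With Model 28.4% passed as higher and 31.6% as lower in the Cal-headed libraries, and with Con 18.0% and 10.9%. Against Con, 11 of 11 NF-kB subunits and inhibitors were listed, and all 11 passed as higher in the Cal-headed libraries, against 18.0% of the table. Of these, Nfkb1 was 0.80 after quantile normalization and 0.97 with median-ratio scaling. Nfkbib fell short of the limit with every scaling tried on the listed genes (0.85 with TMM) and without the library Con 2. Both were singled out after their values were seen. Nfkbiz, an inducible nuclear regulator, had 90.7 ± 30.4 in Con and 4149.6 ± 873 in the Cal-headed libraries, a log2 fold change of 5.53 ± 0.23, and Nfkbid, of the same kind, had 4.48 ± 0.24. Bcl3, a further nuclear regulator, and Nfkbie, a cytoplasmic inhibitor, had 3.18 ± 0.25 and 2.91 ± 0.20. Between the Cal-headed and the Model-headed libraries 3 of the 11 were listed, of which Nfkbid (2.91 ± 0.42) and Rel (1.18 ± 0.23) passed as higher in the Cal-headed libraries and Nfkbib did not reach the limit.

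Of 34 genes of TNF receptor and death receptor complexes, 11 were listed with Con, 7 passing as higher in the Cal-headed libraries and 1, Tnfaip8l2 (-2.56 ± 0.37), as lower. Among all genes listed with Con these shares were 18.0% and 10.9%. Tnfaip3, the ubiquitin-editing enzyme A20 that restrains NF-kB, had 114 ± 53.1 in Con and 5552 ± 532 in the Cal-headed libraries (log2 fold change 5.71 ± 0.31), and Tnfaip6, Tnip3 and Tnfaip2 had 4.08 ± 0.36, 3.67 ± 0.29 and 2.28 ± 0.15. Between the Cal-headed and the Model-headed libraries 13 of the 34 were listed, 6 passing as lower in the Cal-headed libraries and 2, Map3k14 (1.03 ± 0.20) and Tnfaip6 (1.32 ± 0.24), as higher. Map3k14 did not pass without the library Model 3 (0.93), without Cal 1 (0.92), with a pseudocount of 10 or after quantile normalization. Rnf31, 1 of the 6, did not pass after quantile normalization (-0.97). Zbp1, a nucleic acid sensor upstream of necroptosis, had 2721 ± 980.4 in the Model-headed libraries and 197 ± 187 in the Cal-headed libraries (log2 fold change -4.35 ± 0.82). The Zbp1 difference was -3.35 without the library Cal 2, the lowest of its group, and -5.18 without Cal 3, the highest. Ikbke and Tbk1, kinases of the interferon response, had -2.94 ± 0.21 and -1.71 ± 0.23, and Tnip1, a partner of A20, had -1.97 ± 0.27. Zbp1 and Mlkl, which act in 1 death pathway, were both lower in the Cal-headed libraries.

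Of 13 ligands and receptors outside the symbols, Cd40, a costimulatory receptor, passed in both tables, at -2.40 ± 0.29 against the Model-headed libraries and 2.67 ± 0.25 against Con. Of 12 genes of the inflammasome and lytic death, 8 were listed with Model, with 2 passing as higher and 3 as lower in the Cal-headed libraries, and 4 with Con, with 3 passing as higher. The interleukin genes of this list went opposite ways against Model, Il1b at 2.02 ± 0.26 and Il18 at -2.26 ± 0.52, and the DNA sensor Aim2 was at -1.56 ± 0.43. Nod1, a sensor of bacterial peptidoglycan, had -2.01 ± 0.12 against Model, whereas Nlrp3, the inflammasome sensor, had 1.20 ± 0.29 against Model, where it did not pass without the library Model 3 (0.90), and 5.52 ± 0.22 against Con. The other genes of this list that passed against Con were Il1b (6.545 ± 0.373) and Nod2 (3.158 ± 0.213). Of 25 mitochondrial death genes with other names, 6 were listed with Model, with Bik (1.79 ± 0.42) and Bok (1.94 ± 0.40) passing as higher and 3 as lower in the Cal-headed libraries, the latter being the BH3 gene Bmf (-2.11 ± 0.37), the apoptosome gene Apaf1 (-1.54 ± 0.21) and Trp53inp1 (-1.43 ± 0.19). With Con 9 were listed, and Cdkn1a, a cell cycle inhibitor, was the gene that passed as higher (2.96 ± 0.24), while Dffb, the nuclease of apoptotic DNA cleavage, passed as lower (-1.22 ± 0.34), though not without the library Con 2 (-0.99) or with a pseudocount of 10. Tnfaip8l2, Map3k14, Rnf31, Tnfaip6 against Model, Il18, Aim2, Bik, Bok and Dffb were named after their values were seen.

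Markers of blood and vascular cells moved with the same libraries. Of 8 neutrophil markers 7 were in the Cal and Model table, and all 7 passed as lower in the Cal-headed libraries, against 31.6% of that table. The other marker counts stand beside 28.4% higher with Model, and 18.0% higher and 10.9% lower with Con. Mpo was at 0 in all 3 Cal-headed libraries, but the Model-headed libraries held only 7, 3 and 2 reads. With a pseudocount of 10 Mpo did not pass (-0.505). Of 10 macrophage or monocyte markers 7 were listed, 4 passing as higher and 1 (Ccr2) as lower in the Cal-headed libraries, with summed levels of 8304 to 9346 against 2913 to 4642. Endothelial markers were listed for 6 of 7, with 3 passing as higher, at 12966 to 15655 in the Cal-headed libraries against 5865 to 7696. Fibroblast markers were listed for 4 of 7, with 2 passing as higher (Col1a2 not without Model 1, Cal 1 or Cal 3, at 0.92 to 0.96), at 17378 to 21126 against 15696 to 22941. Of the T or NK cell markers Gzmb alone of 8, and of the B cell markers Pax5 alone of 5, was listed, and both passed as lower in the Cal-headed libraries, at 1.84 to 5.12 against 46.3 to 66.1 and at 2.82 to 11.1 against 17.3 to 57.3. None of these 13 was listed with Con, and of 7 cardiomyocyte markers 0 were listed with Model and 3 with Con. In the table with Con, 2 of 8 neutrophil markers, S100a8 and S100a9, passed as higher in the Cal-headed libraries (summed level 48.5 to 183 against 13.0 to 28.5 in Con). Of the macrophage markers 3 were listed there, with Cd14 passing as higher and Ccr2 as lower, at 2025 to 2765 against 1144 to 1273. Endothelial markers (4 of 7) were at 11448 to 13112 against 18508 to 20788, with Kdr passing as lower (not without the library Cal 2, at -0.92). Fibroblast markers (4 of 7) were at 9549.6 to 12371 against 14389 to 16008, with Pdgfra passing as lower. The part of these cell types in the differences of the TNF and cell death genes was not tested.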

How the data were processed

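RNA of 9 rat hearts, 3 per group, was sequenced from TruSeq libraries. The submitters' processing notes name Bowtie 0.12.2 and the mouse builds mm8 and mm9, with no role given, while the study's methods name rat reference sequences. The deposited signal is a read count per gene that the authors divided by a size factor with DESeq2, separately in each table, and 100% of values were whole reads after the factor was undone (size factors 0.820 to 1.17 and 0.950 to 1.07). The authors also deposited a gene length in bases, mouse identifiers, group means, and their own log2 fold changes, p-values and adjusted p-values. The means served only to check headings, and the authors' tests were not used. Both tables list only genes with an authors' adjusted p under 0.05, so the tests here repeat a selection made on the same libraries. Full library depth is unknown, and counting intervals cover counting error only.

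Each table was fitted as a whole with limma 3.58.1 (R 4.3.3, trended prior variance) on log2(normalized count + 1), with Benjamini-Hochberg adjustment over its listed genes. Fold changes are differences of mean values on that scale, and those of low genes depend on the pseudocount. Genes passed at an adjusted p under 0.05 where the log2 fold change also exceeded 1 in size, and ± after a fold change is its standard error. The alternatives were edgeR 4.0.16 and DESeq2 1.42.0 on recovered reads, TMM, median-ratio and quantile scaling, a pseudocount of 0.1 or 10, only genes averaging 10 or more, an adjusted p under 0.01, no fold limit, a replicate block, and leaving out each library. The comparison of the second table used its sample columns headed Cal and Con. The scripts were tested on simulated data, permutation tests were run in R, and the exact counting intervals used scipy 1.17.1. Promoter sequences came from RefSeq (GRCr8), and 16 genes had no entry, among them Bcl2a1a, Bcl2a1b, Bcl2a1d, Birc3, Casp4, Casp8, Gsdmd, Ripk2, Tnfrsf10b, Tnfrsf11a, Tnfrsf11b, Tnfrsf14, Tnfsf12, Tnfsf9 and Traf6. The genes and lists were chosen with earlier results of these data known. A member gene, included in the counts and fits, is not reported here. Values of every library are given for the other genes in both tables or passing in either, and pathway genes are named where they passed with 100 or more in the group of higher mean, at most 4 per list and table.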

Additional observations from a re-analysis of the deposited data

How the results depend on the processing

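No gene of the set changed direction under any alternative. Between the libraries headed Cal and Model, 26 to 32 genes passed with the fold limit kept, and leaving out 1 library gave 29 to 32, with 7 to 8 higher and 22 to 25 lower; against Con, leaving out 1 library gave 14 to 15, with 14 to 15 higher and 0 lower. Without the fold limit the counts moved to 11 higher (of 37) against Model, and to 29 against Con, 24 higher and 5 lower. Rescaling on the listed genes moved the number lower against Con from 0 to 3 (TMM), 1 (quantile) and 3 (median ratio). It also moved the median log2 fold change of all listed genes, from -0.52 to -0.33, -0.10 and -0.23 against Model and from 0.37 to 0.14, -0.04 and 0.09 against Con, while the median of the set was -1.17, -1.13 and -1.03 and at 0.74, 0.65 and 0.68 in the same order. The replicate numbers belong to different animals and same-numbered deviations correlated between -0.14 and 0.11, so they were not taken as pairs; with the replicate block 31 genes passed against Model (7 higher, 24 lower) and 14 against Con (14 higher, 0 lower). A rescaling or 1 library decided whether Cflar, Ripk1, Tnfrsf1b, Bcl2l1 and Birc2 (against Model) and Cflar and Tnfrsf12a (against Con) passed. Casp2 (against Model) and Birc2 (against Con) passed when certain libraries were left out, and Bcl2 and Traf4 (against Model) with TMM or median-ratio scaling, Bcl2 also without 1 library. Total depth is unknown, and Tnfrsf8, Tnfrsf9, Bcl2a1a and Bcl2a1b rest on few reads in 1 group. Other genes were also low in 1 group, among them Tnfrsf19, Tnfrsf11b and Tnfrsf22 (against Model) and Bcl2a1d (against Con). With a pseudocount of 10 their log2 fold changes were 2.02, -1.45, 1.17 and 3.55 in that order, and all still passed.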
